A study of Mus musculus with 11 samples.

Results

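The renin-angiotensin system genes described here are 9 of the 25677 genes listed in the kidney RNA-seq tables, taken by symbol: Agt, Ren1, Ace, Agtr1a, Agtr1b, Mas1, Nr3c2, Enpep and Mme. The group Ctr comprised 3 healthy mice of the strain C57BL/6J, the group Lpr 4 MRL/lpr mice without DNase I, and the group DNase 4 MRL/lpr mice that were injected intraperitoneally with DNase I every day from week 17. All mice were female and 21 weeks old, with 1 library per mouse. The lpr mutation disables Fas, and mice of this strain come down with kidney disease resembling lupus. DNase I digests DNA outside cells. Ctr and the MRL/lpr groups differed in both strain and disease, and these cannot be told apart in any comparison with Ctr. Whether the Lpr mice received injections of vehicle is not given in the sources used here. The RNA came from kidney tissue, so fewer cells of a type and less RNA per cell cannot be told apart. Which part of the kidney was taken is not given in the sources used here.

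In this system the substrate angiotensinogen, the product of Agt, is cut by renin, the product of Ren1, to angiotensin I, which the peptidase ACE turns into angiotensin II. Angiotensin II acts on the AT1 receptor, which mice encode in a pair of genes, Agtr1a and Agtr1b, and raises blood pressure through vessel tone and through aldosterone, the ligand of the mineralocorticoid receptor (Nr3c2). Neprilysin (Mme) and the receptor MAS (Mas1) belong to the arm that makes and senses angiotensin-(1-7), and aminopeptidase A (Enpep) trims angiotensin II. In the kidney, renin comes from juxtaglomerular cells of the afferent arteriole, and the peptidases sit largely in the brush border of the proximal tubule.

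The libraries held between 33469858 and 38460873 counts. Between any 2 mice of a group the counts spread well beyond sampling noise, and their chi-square divided by the degrees of freedom was 385 to 393 where Lpr replicate 3 was in the pair and 17.5 to 85.7 elsewhere. In Lpr replicate 3 the counts fell with gene length, by 0.43 on the log2 scale for each doubling relative to the mean kidney, while this slope lay in the other 10 kidneys between -0.04 and 0.08. The tissue label fitted the markers: summed over 10 proximal tubule markers, the level lay between 5872 CPM (counts scaled to library size, with TMM factors over the 11 libraries) in Lpr replicate 3 and 14207 CPM in Ctr replicate 2. Summed over 13 leukocyte markers it lay between 53.7 and 102 CPM in Ctr, between 704 and 1362 CPM in Lpr and between 546 and 1015 CPM in DNase. Of 7 adrenal markers listed, which were looked at because the adrenal gland lies next to the kidney and makes aldosterone, the summed level did not exceed 1.43 CPM in any kidney. The summed level of 8 adipose markers lay between 2615 and 4824 CPM in Ctr, between 2007 and 2722 CPM in Lpr and between 1456 and 1666 CPM in DNase, and most of it came from Pck1, which proximal tubules also express.

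Per unit of gene length, measured as deposited FPKM (fragments scaled by gene length and library size), 5 of the 9 genes lay close together at the top, Agtr1a and Nr3c2 followed at lower levels, and Mas1 and Agtr1b were near the limit of detection. In Ctr the mean FPKM was 51.2 ± 8.28 (SD, n = 3) for Ace, 43.7 ± 9.95 for Ren1, 43.5 ± 2.25 for Enpep, 40.5 ± 5.17 for Mme and 36.5 ± 5.88 for Agt. The ranges of neighbours in this order overlapped. Agtr1a followed at 20.5 ± 1.97 and Nr3c2 at 2.84 ± 0.149, and neither range met that of the gene above it. Mas1 lay at 0.0335 ± 0.00780 and overlapped Agtr1b. In Lpr the order of the means changed to Agt with 75.0 ± 16.2 (SD, n = 4), Ren1, Ace, Mme and Enpep, and in DNase to Ren1 with 73.9 ± 29.3, Agt, Mme, Ace and Enpep, with overlapping ranges between all neighbours in these runs. The gene lengths used for FPKM are those of the files, which were 7008 bases for Mas1 and 8969 for Nr3c2 against 2620 and 6474 bases of exon in GENCODE vM21, so a level per length depends on the annotation for these genes.

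**Figure D1:**
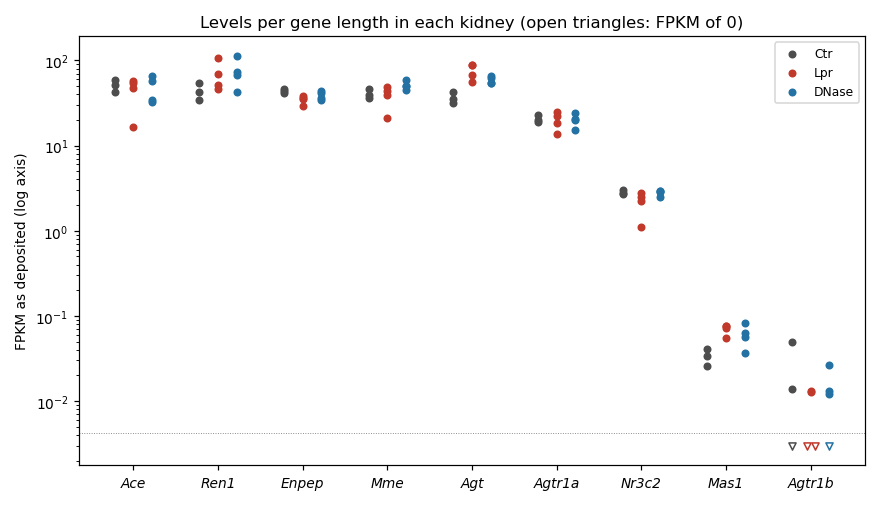
Deposited FPKM of the 9 genes in each of the 11 kidneys on a log axis, with genes ordered by their Ctr mean and points coloured by group, and with open triangles for an FPKM of 0. The 5 upper genes overlap, Agtr1a and Nr3c2 are set apart from them and from each other, and Agtr1b was at 0 in 4 kidneys.

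Agt was the member that rose in both MRL/lpr groups. Agt lies at chr8:124556534-124569706 on the minus strand (GRCm38) and encodes angiotensinogen, which liver, adipose tissue and the proximal tubule are known to make. The 250 bases before its start, with those of Ren1, are shown because they are the substrate and the enzyme that open the cascade. The windows are from RefSeq on GRCm38.p6, at chr8:124569707-124569956 for Agt (minus strand) and chr1:133350424-133350673 for Ren1 (plus strand), each ending at the base before the RefSeq start, which for Ren1 lies inside the gene as GENCODE vM21 draws it. Capitals mark, on the printed strand, the TATA box letters TATAAA and the STAT motif TTCNNNGAA.
Agt: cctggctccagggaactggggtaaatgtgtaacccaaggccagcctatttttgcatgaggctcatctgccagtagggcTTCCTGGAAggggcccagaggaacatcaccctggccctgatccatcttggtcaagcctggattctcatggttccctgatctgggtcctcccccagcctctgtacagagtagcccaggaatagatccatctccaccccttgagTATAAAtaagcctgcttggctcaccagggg
Ren1: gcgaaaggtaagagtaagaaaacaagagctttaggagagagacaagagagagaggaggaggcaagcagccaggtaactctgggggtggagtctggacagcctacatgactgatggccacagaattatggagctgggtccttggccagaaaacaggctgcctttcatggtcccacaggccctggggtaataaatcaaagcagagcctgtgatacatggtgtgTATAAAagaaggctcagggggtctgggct
TATAAA stood 30 bases before the start in Agt and 29 bases before it in Ren1, and TTCNNNGAA stood 172 bases before the start in Agt. Among the windows of the other members, TATAAA was found 31 bases before the start in Agtr1b and, on the reverse strand, 31 bases before it in Ace and 52 in Enpep, and TTCNNNGAA 141 bases before it in Enpep and 166 in Mme. Over all 32851 mouse windows of the same length, read on both strands, 12.4% held TATAAA and 7.02% held TTCNNNGAA. The cAMP response element TGACGTCA, present in 1.55% of all windows, and the steroid receptor half-site AGAACA, present in 16.1%, were in none of the 11 windows found for 8 of the 9 genes. A match to such letters is a description and not a binding site.

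In Ctr kidneys Agt was at 69.8, 88.5 and 61.6 CPM. In Lpr it was at 172, 167, 139 and 104 CPM, and in DNase at 101, 116, 101 and 124 CPM. Every kidney of both MRL/lpr groups lay above every Ctr kidney, and Lpr and DNase overlapped, with Lpr replicate 4 among the DNase values and the other 3 Lpr kidneys above them. The Ctr mean was 73.3 ± 13.8 CPM (SD, n = 3) and the Lpr mean 145 ± 31.1 CPM (SD, n = 4), which gave a log2 fold change of 1.00 with a standard error of 0.22 (adjusted p = 0.0239, edgeR's quasi-likelihood test with Benjamini-Hochberg adjustment over all genes). In DNase the mean was 110.3 ± 11.5 CPM (SD, n = 4), a log2 fold change of 0.59 against Ctr with a standard error of 0.13 (edgeR adjusted p = 0.0111). The DNase and Ctr comparison uses the same 3 Ctr kidneys as the Lpr and Ctr comparison. From Lpr to DNase the log2 fold change of Agt was -0.40, with a 95% confidence interval from -0.79 to -0.01, an unadjusted p of 0.0460 and an adjusted p of 0.854 in edgeR, so the difference did not pass the test.

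The rise of Agt in Lpr depended on single kidneys for its call and not for its size. Without Ctr replicate 1, Ctr replicate 3, Lpr replicate 1 or Lpr replicate 2 the edgeR adjusted p was 0.120, 0.119, 0.0620 and 0.0733, with log2 fold changes of 0.96, 0.88, 0.92 and 0.91. In DNase against Ctr it was 0.0549 without Ctr replicate 1. Leukocyte markers moved with the same groups, with 11 of 13 in Lpr and 13 of 13 in DNase passing the test as higher than in Ctr. Over all genes 7.27% and 13.1% passed as higher. The part of leukocytes in the level of Agt was not tested. Of the 8 adipose markers 0 passed as higher in either MRL/lpr group against Ctr. Their log2 fold change was above 0 for 4 of 8 in Lpr and for 0 of the 7 tested in DNase. Adipoq, the adiponectin gene, ranged from 3.44 to 73.5 CPM in Ctr, from 0.904 to 72.2 CPM in Lpr and from 0.279 to 17.9 CPM in DNase.

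Ren1 varied among mice of a group more than it differed between groups. Ren1 lies at chr1:133350510-133360325 (plus strand) and encodes renin. Its levels were 61.9, 82.3 and 49.8 CPM in Ctr, 155, 71.2, 105 and 62.6 CPM in Lpr and 156, 92.0, 99.7 and 59.8 CPM in DNase. Replicate 1 of Lpr and of DNase stood highest, replicate 4 of each, with Lpr replicate 2, lay within the Ctr range, and all 3 groups overlapped. The highest Lpr kidney held 2.48 times the lowest and the highest DNase kidney 2.61 times the lowest, against 1.65 times in Ctr. Between Lpr and Ctr the log2 fold change of Ren1 was 0.62 ± 0.33 (SE), and 0.65 ± 0.29 (SE) between DNase and Ctr, with edgeR adjusted p values of 0.338 and 0.144. It was 0.05 between DNase and Lpr, with a 95% interval from -0.72 to 0.81. Without DNase replicate 4, Ren1 passed the test against Ctr with a log2 fold change of 0.84 (edgeR adjusted p = 0.0413). Some mouse strains carry a second renin gene, Ren2, which is not among the genes listed in the files, and whether reads of such a gene were counted on Ren1 was not tested.

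**Figure D2:**
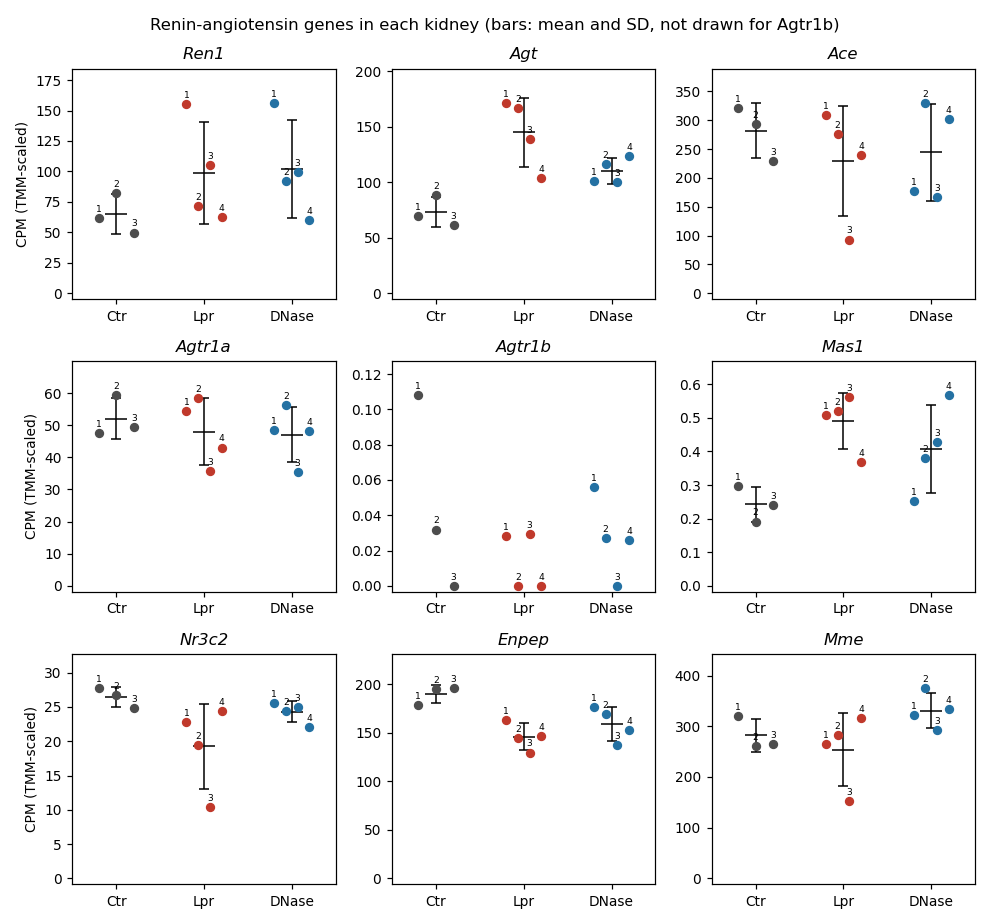
TMM-scaled CPM of each gene in every kidney, in a panel per gene with its own scale from 0, with small digits for the replicate number and bars for the mean and SD. Agt is above the Ctr range in all 8 MRL/lpr kidneys, and Ren1 overlaps in all groups. Lpr replicate 3 is the lowest kidney for Ace, Enpep, Mme and Nr3c2.

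The substrate and the enzyme did not keep a fixed ratio between kidneys. The log2 ratio of Ren1 to Agt, from counts per gene length, was 0.27, 0.34 and 0.13 in Ctr. It was 0.29, -0.79, 0.04 and -0.29 in Lpr and 1.07, 0.11, 0.43 and -0.61 in DNase. The DNase kidneys spread on both sides of the Ctr range, and 3 of the 4 Lpr kidneys lay below it. The mean difference was -0.43 between Lpr and Ctr, 0.44 between DNase and Lpr and 0.00 between DNase and Ctr, with p values of 0.171, 0.343 and 1.00 in exact two-sided permutation tests. Adjusted over the 9 tests of ratios that were made, each of these had an adjusted p of 1.00. With 4 mice against 3 the smallest p that the exact permutation test can give is 0.0571, and with 4 against 4 it is 0.0286.

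**Figure D3:**
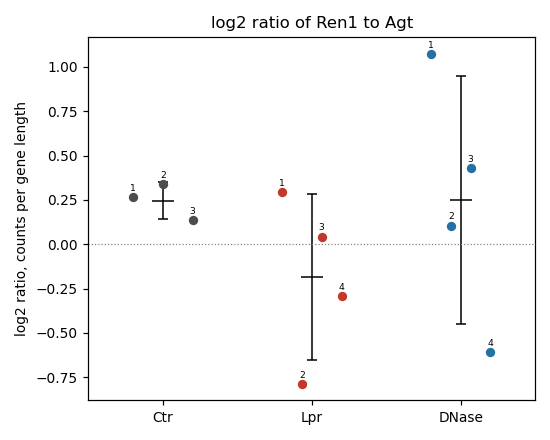
The log2 ratio of Ren1 to Agt in each kidney, from counts per gene length, with replicate numbers and bars for the mean and SD. The ratios of both MRL/lpr groups reach above and below 0, while those of the 3 Ctr kidneys lie between 0.13 and 0.34.

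Ace did not differ between groups beyond the spread of the kidneys, and its lowest value came from Lpr replicate 3. Ace, at chr11:105967945-105989964 on the plus strand, encodes the angiotensin-converting enzyme. It stood at 322, 294 and 229 CPM in Ctr, at 309, 276, 93.1 and 240.3 CPM in Lpr and at 178, 330.2, 167 and 302 CPM in DNase. Lpr replicate 3 held 0.338 times the mean of the other 3 Lpr kidneys, and DNase replicates 1 and 3 lay below the Ctr range while DNase replicate 2 lay above it. Against Ctr, Ace had a log2 fold change of -0.28 (95% interval from -1.10 to 0.54) in Lpr and -0.20 (from -0.77 to 0.36) in DNase, and it was 0.09 (from -0.72 to 0.90) between DNase and Lpr. The edgeR adjusted p values were 0.713, 0.621 and 0.959. Without Lpr replicate 3 the log2 fold change between Lpr and Ctr was -0.03, and that between DNase and Lpr turned to -0.18. Of the 5287 exon bases of Ace in GENCODE vM21, 295 overlap Gm11651 on the other strand, and the strand setting of the counting is not given in the sources used here.

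The AT1 receptor was read from Agtr1a, and Agtr1b was close to absent. Agtr1a lies at chr13:30336441-30382867 (plus strand) and Agtr1b at chr3:20314473-20367177 (minus strand). Their reading frames have the same length of 1080 bases in GENCODE vM21 and differ at 99 of them, an identity of 90.8%. The stretches below show whether reads of 100 bases, the length the study used, could be told apart: bases 280 to 379 are the most alike, with a single difference, and bases 801 to 900 hold the median number of differences, 8. Positions are counted from 1 at the first base of the reading frame, and capitals mark the bases that differ.
Agtr1a bases 280 to 379: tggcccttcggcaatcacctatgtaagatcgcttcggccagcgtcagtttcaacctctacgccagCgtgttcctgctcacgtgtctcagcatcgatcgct
Agtr1b bases 280 to 379: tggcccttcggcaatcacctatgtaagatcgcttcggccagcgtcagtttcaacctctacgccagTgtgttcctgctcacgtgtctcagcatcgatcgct
Agtr1a bases 801 to 900: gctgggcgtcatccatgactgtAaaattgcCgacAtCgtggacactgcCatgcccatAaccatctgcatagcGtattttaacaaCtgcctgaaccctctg
Agtr1b bases 801 to 900: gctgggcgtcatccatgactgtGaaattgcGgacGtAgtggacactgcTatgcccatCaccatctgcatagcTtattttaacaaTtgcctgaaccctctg
All 981 windows of 100 bases held at least 1 difference, and the longest identical run was 66 bases. How the authors' counting treated reads that fit both genes was not tested.

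Agtr1a stood at 47.6, 59.3 and 49.3 CPM in Ctr, at 54.3, 58.6, 35.8 and 43.0 CPM in Lpr and at 48.5, 56.2, 35.4 and 48.3 CPM in DNase. The groups overlapped, and replicate 3 was the lowest kidney in both MRL/lpr groups. Its log2 fold change was -0.11 (95% interval from -0.57 to 0.36) between Lpr and Ctr, -0.03 (from -0.46 to 0.41) between DNase and Lpr and -0.14 (from -0.48 to 0.19) between DNase and Ctr. Agtr1b had 4, 1 and 0 counts in the Ctr kidneys, 1, 0, 1 and 0 in Lpr and 2, 1, 0 and 1 in DNase, against 1212 to 2249 counts of Agtr1a per kidney. It did not pass the filter on low counts in any comparison, and no fold change is given. Only Ctr replicate 1 exceeded the floor of 3 counts used here, which covers counting error only. The log2 ratio of Agtr1b to Agtr1a, which rests on these few counts and on the 0.5 added to each, had exact two-sided permutation p values of 0.571, 0.429 and 0.857 in the 3 comparisons.

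Mas1 was measured by few counts in all kidneys. Mas1, at chr17:12841079-12868143 on the minus strand, encodes the receptor linked to angiotensin-(1-7). It had 11, 6 and 8 counts in Ctr, 18, 20, 19 and 13 in Lpr and 9, 14, 17 and 22 in DNase, or 0.191 to 0.297 CPM in Ctr, 0.368 to 0.561 CPM in Lpr and 0.251 to 0.566 CPM in DNase. All Lpr kidneys lay above all Ctr kidneys, and DNase overlapped both. The log2 fold change between Lpr and Ctr was 1.01 with a 95% interval from 0.09 to 1.93, and it did not pass the test (edgeR adjusted p = 0.187). Between DNase and Ctr it was 0.73 (from -0.20 to 1.67, edgeR adjusted p = 0.259), and between DNase and Lpr -0.27 (from -1.05 to 0.51, edgeR adjusted p = 0.877).

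Nr3c2 had its lowest mean in Lpr, without passing the test. Nr3c2, at chr8:76899442-77245012 on the plus strand, encodes the mineralocorticoid receptor of the distal nephron and collecting duct. It stood at 27.7, 26.7 and 24.8 CPM in Ctr, at 22.8, 19.4, 10.4 and 24.3 CPM in Lpr and at 25.5, 24.4, 25.0 and 22.1 CPM in DNase. All Lpr kidneys lay below all Ctr kidneys, with Lpr replicate 3 at 0.470 times the mean of the other 3 Lpr kidneys, and DNase overlapped both groups. The log2 fold change between Lpr and Ctr was -0.45 ± 0.27 (SE), with an edgeR adjusted p of 0.404, and without Lpr replicate 3 it was -0.25. From Lpr to DNase it was 0.33 (95% interval from -0.19 to 0.86), and without Lpr replicate 3 it was 0.12. Of the 6474 exon bases of Nr3c2 in GENCODE vM21, 247 overlap Gm10649 on the other strand.

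Of the peptidases that cut angiotensin peptides, Enpep was lower in the MRL/lpr groups without passing the test and Mme overlapped. Enpep, aminopeptidase A, lies at chr3:129269175-129332720 (minus strand). It stood at 179, 195 and 196 CPM in Ctr, at 163, 145, 129.6 and 147 CPM in Lpr and at 176, 169, 137 and 152 CPM in DNase. Every MRL/lpr kidney lay below every Ctr kidney, although DNase replicate 1 at 176 CPM was close to Ctr replicate 1 at 179 CPM. The log2 fold change against Ctr was -0.37 ± 0.14 (SE) in Lpr and -0.26 ± 0.10 (SE) in DNase, with edgeR adjusted p values of 0.179 and 0.0879. Without Lpr replicate 3, Enpep passed between Lpr and Ctr with a log2 fold change of -0.32 (edgeR adjusted p = 0.0410). From Lpr to DNase it was 0.12 (95% interval from -0.18 to 0.41).

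Mme, at chr3:63241537-63386030 on the plus strand, encodes neprilysin, which cuts angiotensin I to angiotensin-(1-7). It stood at 319.9, 261 and 264 CPM in Ctr, at 264, 284, 152 and 317 CPM in Lpr and at 322, 375, 292 and 334 CPM in DNase. The DNase kidneys held the 3 highest values of the 11 kidneys, and their range overlapped those of Ctr and Lpr. For Mme the log2 fold change was -0.14 (95% interval from -0.71 to 0.43) between Lpr and Ctr, 0.38 (from -0.10 to 0.86) between DNase and Lpr and 0.23 (from -0.02 to 0.48) between DNase and Ctr. The edgeR adjusted p values were 0.799, 0.854 and 0.187. Without Lpr replicate 3 the log2 fold change between Lpr and Ctr turned to 0.04 and that between DNase and Lpr was 0.19.

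Counted over the comparisons, 1 of the 8 members tested passed between Lpr and Ctr, where 10.2% of all 16074 genes did. Between DNase and Ctr it was also 1 of 8, where 21.7% of 16100 genes passed, and in both comparisons the member was Agt. Between DNase and Lpr 0 of 8 members and 0% of 15832 genes passed, with 886 genes (5.6%) at an unadjusted p under 0.05 in edgeR, among them Agt as the only member. At that unadjusted level stood 3 of 8 members and 21.4% of genes between Lpr and Ctr, and 3 of 8 members and 33.5% of genes between DNase and Ctr. DESeq2 called 19 genes between DNase and Lpr and 0 members. No member passed the stricter rule that also asks for an absolute log2 fold change above 2, which 5.78% of genes passed between Lpr and Ctr and 6.01% between DNase and Ctr. The groups did not overlap for 4 of the 8 members between Lpr and Ctr (Agt and Mas1 higher, Enpep and Nr3c2 lower), where this held for 25.6% of all genes, and for Agt and Enpep between DNase and Ctr, where it held for 31.9%. DNase and Lpr were apart for 0 of 8 members and 3.76% of all genes, of which 2.08% were higher and 1.68% lower. The median log2 fold change of the 8 members was -0.12 between Lpr and Ctr, 0.07 between DNase and Lpr and 0.05 between DNase and Ctr, against 0.03, -0.02 and 0.00 over all genes.

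**Figure D4:**
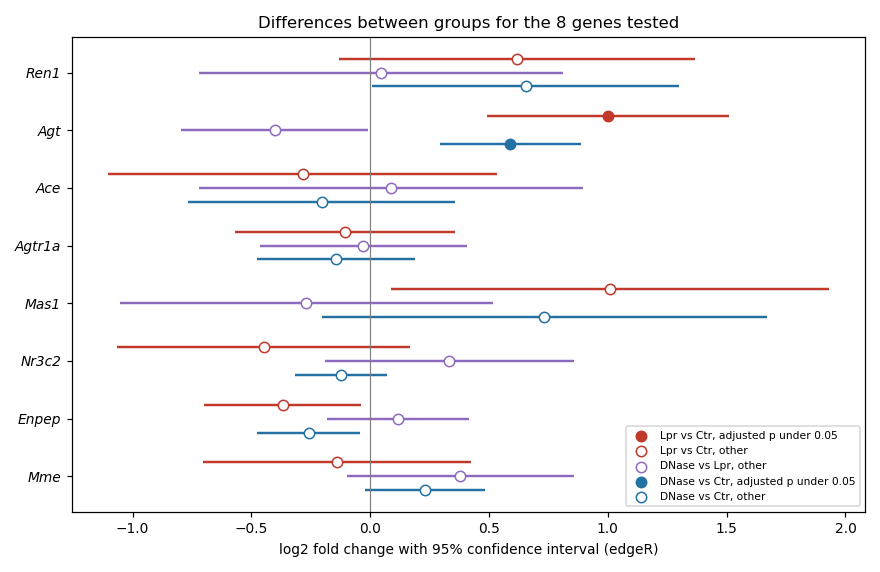
Log2 fold changes of the 8 genes tested, with 95% confidence intervals from edgeR, for Lpr against Ctr, DNase against Lpr and DNase against Ctr. Filled points passed an adjusted p of 0.05, which only Agt did, at 1.00 in Lpr and 0.59 in DNase against Ctr, and the intervals of the other 7 genes include 0 in at least 1 comparison.

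In Lpr replicate 3, Ace, Mme and Nr3c2 stood low, and these are among the longer members. Relative to the mean of the other 3 Lpr kidneys, that kidney held 1.10 times their level of Ren1 (1423 bases in the files), 0.942 times of Agt (1931 bases), 0.689 times of Agtr1a (2442 bases) and 0.856 times of Enpep (4208 bases). It held 0.338 times of Ace (5303 bases), 0.527 times of Mme (6714 bases) and 0.470 times of Nr3c2 (8969 bases). The levels did not follow length strictly: Agtr1a lay below the longer Enpep, and Ace below the longer Mme and Nr3c2. Mas1 stood at 1.21 times, on 19 counts, with 7008 bases in the files and 2620 bases of exon in GENCODE vM21. With the trend of each library with gene length removed, the log2 fold change between Lpr and Ctr was -0.24 for Ace, -0.04 for Mme and -0.31 for Nr3c2, and Agt passed at 0.89 (edgeR adjusted p = 0.0496). The proximal tubule markers were also lowest in this kidney, and the part of length, of tissue makeup or of RNA quality in these levels was not tested.

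**Figure D5:**
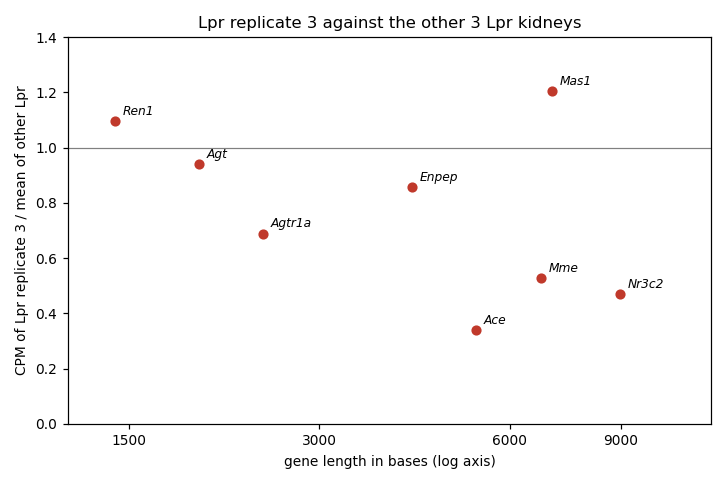
CPM of Lpr replicate 3 divided by the mean CPM of the other 3 Lpr kidneys, against gene length on a log axis, for 8 of the 9 genes, with a line at a ratio of 1. Ace, Mme and Nr3c2, all among the longer genes, lie between 0.338 and 0.527, while Ren1, Agt and Mas1 lie between 0.942 and 1.21.

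Other genes of the pathway were taken from a list of 20, of which 18 were in the files. Between Lpr and Ctr 1 of the 16 tested rose and 0 fell, against 7.27% and 2.92% of all genes. The riser was Prcp, a lysosomal carboxypeptidase that can cut angiotensin II to angiotensin-(1-7), whose Ctr mean was 44.2 ± 4.66 CPM (SD, n = 3) and whose Lpr mean was 84.6 ± 10.7 CPM (SD, n = 4), a log2 fold change of 0.95 (edgeR adjusted p = 0.00729). This call was lost without Ctr replicate 1, without Ctr replicate 3 and with the replicate number as a block, where 0 of these genes passed. Without Lpr replicate 3, 1 rose and 2 fell, in a fit where 2824 of 15855 genes passed, against 1639 of 16074 with that kidney. In DNase Prcp was at 81.1 ± 3.73 CPM, a log2 fold change of 0.88 against Ctr (edgeR adjusted p = 0.000114). Between DNase and Ctr 3 of 15 genes fell, against 8.61% of all genes: Klk1, tissue kallikrein, by 0.78, Anpep, aminopeptidase N, by 0.44 and Rnpep, aminopeptidase B, by 0.40 on the log2 scale. Their log2 fold changes between Lpr and Ctr were -0.77, -0.51 and -0.24 and did not pass the test. Compared directly, DNase and Lpr differed by -0.01, 0.08 and -0.15 for these 3 genes, with edgeR adjusted p values of 0.993, 0.939 and 0.854. Atp6ap2, the (pro)renin receptor, was at 121 CPM in Ctr, 155 CPM in Lpr and 129.6 CPM in DNase, with an edgeR adjusted p of 0.330 in Lpr and 0.314 in DNase against Ctr. From Lpr to DNase 0 of 16 passed.

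A list of 24 genes was chosen for renin cells and the control of renin release, and its genes need not be particular to the juxtaglomerular apparatus. In Ctr their levels differed widely, with Vdr at 278 CPM and Akr1b7 at 2.19 CPM. Between Lpr and Ctr 1 of the 24 was higher and 1 lower. Over all genes 7.27% were higher and 2.92% lower. Rbpj, the nuclear partner of Notch that is known to hold the renin cell identity, fell in both MRL/lpr groups: its mean was 36.5 ± 2.68 CPM in Ctr (SD, n = 3), 18.9 ± 2.21 CPM in Lpr (SD, n = 4) and 18.4 ± 0.462 CPM in DNase (SD, n = 4), with log2 fold changes of -0.94 (edgeR adjusted p = 0.00694) and -0.99 (edgeR adjusted p = 4.25e-05). Which cells of the kidney the levels of Rbpj and of the other genes of this list came from was not tested. Ptger4, a prostaglandin E2 receptor that juxtaglomerular cells and leukocytes both use, rose by 1.14 in Lpr and 0.87 in DNase on the log2 scale. Creb1, a cAMP-responsive factor, rose by 0.31 in DNase against Ctr, which made 2 higher and 1 lower of 24. Over all genes 13.1% were higher and 8.61% lower in that comparison. Akr1b7, a marker of renin cells, stood at 2.19 CPM in Ctr, 1.98 CPM in Lpr and 2.33 CPM in DNase, with an edgeR adjusted p of 0.888 in Lpr and 0.869 in DNase against Ctr. Of 15 partners and signalling genes of the AT1 receptor, 1 rose between Lpr and Ctr, Arrb2 (beta-arrestin 2, also abundant in leukocytes), by 1.61 on the log2 scale, where 7.27% of all genes rose. Without Lpr replicate 3 this became 4 higher and 1 lower, and with the length trend removed 3 higher and 1 lower. Of all genes 2824 of 15855 and 2054 of 16074 passed in these fits, against 1639 of 16074 in the main fit. In DNase against Ctr 5 of 15 rose and 1 fell, against 13.1% and 8.61% of all genes, with Arrb2 at 1.13, Arap1 at 0.58 and Nox4 at -0.54.

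Around the mineralocorticoid receptor, 0 of 16 genes passed between Lpr and Ctr, where 1639 of all 16074 genes did. Without Lpr replicate 3, 1 rose and 2 fell there, in a fit where 2824 of 15855 genes passed. With the length trend removed 1 rose and 1 fell, where 2054 of 16074 genes passed. Between DNase and Ctr 1 rose and 4 fell, where 13.1% of all genes rose and 8.61% fell. The 4 that fell were Sgk1, a kinase induced by aldosterone and glucocorticoids, at -0.74, Slc12a3, the thiazide-sensitive cotransporter, at -0.69, Scnn1b, a subunit of the epithelial sodium channel, at -0.45, and Klf9 at -0.44. Sgk1 ranged from 98.5 to 202 CPM in Ctr, from 87.1 to 289.6 CPM in Lpr and from 74.4 to 115 CPM in DNase, so the groups overlapped. Between DNase and Lpr its log2 fold change was -1.09 (95% interval from -1.83 to -0.34), with an edgeR adjusted p of 0.820. In that comparison 4 of the 16 genes had an unadjusted p under 0.05 in edgeR, all lower in DNase, against 5.6% of all genes. These were Sgk1, Tsc22d3, Fkbp5 and Per1, the last 3 named after their values were seen. Of the 16 genes 8 had a log2 fold change above 0, and the median was 0.008. In Lpr Tsc22d3 ranged from 48.1 to 154 CPM, Fkbp5 from 47.5 to 105 CPM and Per1 from 26.9 to 196 CPM. In DNase they ranged from 41.7 to 53.8, from 32.9 to 57.8 and from 30.1 to 32.4 CPM, so the groups overlapped. Hsd11b2, which keeps cortisol-like steroids from the receptor, was at 221 CPM in Ctr, 177 CPM in Lpr and 180.3 CPM in DNase, with edgeR adjusted p values of 0.375 and 0.215 against Ctr.

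Among the other peptidases of the brush border, the neighbours of Enpep and Mme, 1 of 12 rose between Lpr and Ctr (Dpep1, a dipeptidase, by 0.66 on the log2 scale), against 7.27% of all genes. With the length trend removed 0 rose, so that this call was lost, and 1 fell, and without Lpr replicate 3, 2 rose and 2 fell. Of all genes 2054 of 16074 and 2824 of 15855 passed in these fits, against 1639 of 16074 in the main fit. In DNase against Ctr 1 rose (Xpnpep2, an aminopeptidase, by 0.80) and 2 fell (Mep1b, a meprin subunit, by 0.72 and Anpep), against 13.1% and 8.61% of all genes. Of the marker lists for kidney parts, between Lpr and Ctr 1 of 10 proximal, 1 of 11 loop, distal and collecting duct, and 1 of 8 podocyte markers rose, and 0 fell. These were Slc7a13 at 2.41, Pvalb at 1.35 and Cdkn1c at 0.92 on the log2 scale. The mean of Slc7a13 was low, at 0.618 CPM in Ctr and 3.30 CPM in Lpr. Most markers of these 3 lists leaned lower in Lpr without passing. The log2 fold change was above 0 for 2 of 10 proximal, 2 of 11 distal and 3 of 8 podocyte markers. Their medians were -0.42, -0.40 and -0.41, against 0.03 over all genes. Over all genes 7.27% rose and 2.92% fell. The call of Pvalb was lost without Lpr replicate 3 and with the length trend removed, where 0 of the 11 rose. None of 10 endothelial or 10 mesangial and smooth muscle markers passed there, with 1 and 0 of them at an unadjusted p under 0.05 in edgeR. Without Lpr replicate 3 the fallers became 2 of 10 proximal, 4 of 11 distal, 2 of 8 podocyte and 1 of 10 endothelial markers. Over all genes the number that passed also rose in that fit, from 1639 of 16074 to 2824 of 15855.

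The genes whose profiles over the 11 kidneys were most like those of the members were sought by the root mean square difference of standardised log2 CPM, over 16499 other genes, as a description. Agt was most like Oas1a, an interferon-induced gene, at 0.236 SD, then Clca3a1 at 0.272 and Itgae, an integrin of intraepithelial lymphocytes, at 0.276. Ren1 had no close match, with Sv2c at 0.509, Gm34333 at 0.554 and Dtwd2 at 0.560. Ace was most like Steap2 (0.298), Man1b1 (0.304) and Dnajc6 (0.306), and Agtr1a was most like Itga1 (0.330), Ccbe1 (0.358) and Cdcp1 (0.392). Enpep was most like Nepn (0.221), Rsl1 (0.289) and Slx4 (0.305). Mme was most like Nr3c1, the glucocorticoid receptor (0.224), Rabgap1l (0.231) and Svil (0.238), and Nr3c2 was most like Sec31b (0.131), Endov (0.163) and Kalrn (0.166), which shared the low value of Lpr replicate 3. Between members the smallest differences were 0.554 for Mme and Nr3c2, 0.627 for Agt and Mas1 and 0.629 for Ace and Agtr1a. After centring each group, so that only differences among mice of a group counted, the nearest genes were Gm4221 (0.395), Phf1 and Spata7 for Ren1, and Nrxn2 (0.320), Fga and Ipo5 for Agt. They were Gcnt1, Slc37a3 (0.234) and B3galt5 for Ace, Gaa (0.281), Acvr1 and Itgav for Agtr1a, and A930013F10Rik (0.242), Ctns and Slc26a11 for Enpep. Nr3c1 (0.150), Ugt2b34 and Ylpm1 were nearest to Mme, and Seh1l (0.0791), Sec31b and Dcaf1 to Nr3c2. The 11 points share the spread of libraries and tissue makeup, so the likeness carries no test.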

How the data were processed

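Kidney RNA of 11 mice was measured, with 1 library per mouse and groups taken from the labels. The authors deposited raw counts for every gene, which HTSeq gave from paired reads of 100 bp. They also deposited FPKM: the authors divided by library size and by a length that is fixed per gene. The submitters' processing notes name mm10, fastp, HTSeq, DESeq2 and R 3.2.0. The aligner, the annotation and the strand setting are not given in the sources used here. All columns were used (0 unused), and 0 rows named no gene.

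Groups were compared in pairs, each fit holding only the 2 groups in question, by edgeR 4.0.16 (quasi-likelihood test after filterByExpr and TMM, R 4.3.3), with Benjamini-Hochberg adjustment over all genes and a threshold of 0.05. CPM is scaled by TMM over the 11 libraries. Ratios used counts plus 0.5 per gene length and exact two-sided permutation tests (scipy 1.17.1). The alternatives were DESeq2 1.42.0, its size factors, no filter, all 3 groups in a single fit, the replicate number as a block, removal of the trend with gene length, limma 3.58.1 with log2(FPKM + 1) or log2(FPKM + 0.1) where the mean FPKM reached 0.5, and leaving out each kidney. For ratios they were FPKM plus 0.01, the length trend, the block and leaving out each kidney. Figures used matplotlib 3.10.9.

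Positions came from GENCODE vM21 and promoters from RefSeq, both on GRCm38 as mm10 is. The table of promoters had an entry for 8 of the 9 genes, without Agtr1a. The members and lists were chosen with earlier results of these data known. Every member was named in every comparison, and of each other list at most the 4 genes with the largest change among those that passed, with Atp6ap2, Hsd11b2, Sgk1 and Akr1b7 always, and for each member with a mean of at least 1 CPM the 3 genes most like it. Some results are not reported here, among them a ratio that is counted in the adjustment over 9 tests.

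Libraries held 33469858 to 38460873 counts, and the spread between mice, not depth, limits all members except Mas1 and Agtr1b. P-values set a difference between groups against the spread between these mice. In simulated data 100 genes were changed by a log2 fold change of 1, 100 others by 2 and the rest not at all. The changed genes lay above a floor in level that Mas1 and Agtr1b do not reach. At a log2 fold change of 1 edgeR recovered 16 between Lpr and Ctr (16074 genes) and 49 between DNase and Lpr (15832 genes). Between DNase and Ctr (16100 genes) it recovered 94. At a log2 fold change of 2 it recovered 91, 99 and 100. The adjusted threshold depends on how many genes change. In the real comparison of Lpr and Ctr 1639 genes passed, so these recoveries need not hold there.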

Additional observations from a re-analysis of the deposited data

How the results depend on the processing

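The number of members that passed between Lpr and Ctr was 1 under each of the 8 settings that kept all libraries, and 0 to 2 when a kidney was left out. Between DNase and Ctr it was 0 with all 3 groups in a single fit, where Agt had a log2 fold change of 0.59 (edgeR adjusted p = 0.0721), and 0 to 2 with a kidney left out. Between DNase and Lpr it was 0 throughout. Of the other pathway genes 1 passed between Lpr and Ctr, and 2 did with DESeq2, 2 with all 3 groups, 2 with the length trend removed and 0 to 3 with a kidney left out, of which the 3 came without Lpr replicate 3. Between DNase and Ctr 4 passed, and 2 with all 3 groups. Whether the replicate numbers paired the mice was not settled, as correlations of deviations were computed for same-numbered kidneys only, without other pairs beside them. These lay between -0.28 and 0.06 for Lpr and Ctr and between -0.14 and 0.21 for DNase and Lpr. For DNase and Ctr they lay between -0.34 and -0.10. With the replicate number as a block, which drops replicate 4 in the comparisons with Ctr, 0 other pathway genes passed between Lpr and Ctr and 2 between DNase and Ctr, and the members that passed were 1, 0 and 1 in the 3 comparisons, with Agt at 1.14, -0.38 and 0.54. The genes that passed over the whole table between Lpr and Ctr were 1639, and 2515 with DESeq2 and 2555 with all 3 groups, and between DNase and Ctr they were 3493, and 1889 with all 3 groups and 1862 with the block. With the length trend removed, the ratio of Ren1 to Agt turned to -0.0084 between DNase and Ctr. With a kidney left out, the differences in the log2 ratio of Ren1 to Agt between DNase and Ctr lay between -0.27 and 0.29, and those of Agtr1b to Agtr1a between -1.48 and 0.058 (Lpr and Ctr) and between -0.96 and 0.58 (DNase and Ctr). With these numbers of mice no single ratio could pass the threshold after adjustment over 9 tests, so the missed threshold says nothing about them. Single members turned where their fold change was near 0: Agtr1a between DNase and Lpr to 0.019 with the length trend removed, to 0.025 by limma on log2(FPKM + 1) and to 0.027 on log2(FPKM + 0.1). With a kidney left out, the range was -0.15 to 0.087 for Agtr1a, -0.24 to 0.35 for Ren1 and -0.18 to 0.26 for Ace in that comparison, and -0.23 to 0.0042 for Agtr1a and -0.26 to 0.039 for Mme, both upper ends without Lpr replicate 3, between Lpr and Ctr. The cause of these changes was not tested. The depth limits Agtr1b and Mas1. In simulated data 16 of 100 log2 fold changes of 1 were recovered between Lpr and Ctr. Far fewer genes changed there than passed in the real comparison, so this recovery need not hold for it.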
